A study of Mus musculus with 6 samples.

Results

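*Afp*, *H19*, *Gpc3*, *Dlk1*, *Peg3* and 2 repressors of *Afp*, *Zhx2* and *Zbtb20*, were followed in the livers of mouse pups at postnatal day 6 (P6), when the liver is turning off its fetal program. These 7 genes were chosen by name, with earlier results of these data known. Every probe carrying one of these names in the bead array table was taken, whatever its values. They were 7 of the 17914 genes and 8 of the 25697 probes on the array. *Zbtb20* was found only under its older symbol Zfp288. Of the 8 probes, 7 passed the filter on dim probes described below, among 10734 probes of 8143 genes that passed it in all.

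Both groups were male pups from 1 responder line, called *Signalox-hSRY*, on the FVB/N background that the labels give as FVB. It carries a single-copy transgene at the *H11* locus of chromosome 11, in which the ubiquitous CAG promoter reads a floxed *DsRed2* gene, so hSRY-OFF pups, whose transgene had not been recombined, also carried the cassette. In the hSRY-ON pups Cre recombinase had moved FLAG-tagged human *SRY* with *IRES-EGFP* behind that promoter. Cre came from the oocytes of *Ddx4-Cre* mothers and acted in the fertilised egg, and the pups studied had not themselves inherited *Ddx4-Cre*, so activation was not limited to the liver. Each group had 3 livers, 1 array each, described in the study as biological triplicates. The study calls the array controls age-matched and does not name their mothers or litters. It describes recombination in eggs of *Ddx4-Cre* mothers as highly efficient, whether or not the pup inherits Cre. Its control littermates are defined as lacking the cassette. Pups with an unrecombined cassette are therefore not expected in the litters of hSRY-ON pups. By that account mother and litter differed along with *hSRY* state and cannot be told apart from it. *SRY*, on the Y chromosome, directs the fetal gonad to become a testis, and the comparison describes liver transcripts of pups with and without its activation. The study reports that hSRY-ON pups suckled little, lacked milk in the stomach, grew slowly, had fatty livers and died early. In these livers, differences that go with poor feeding or illness cannot be told apart from those made by *SRY* in the liver itself.

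The fetal liver makes large amounts of alpha-fetoprotein, the serum carrier protein encoded by *Afp*, and of the noncoding RNA *H19*, and both are silenced in mice in the weeks after birth. *Zhx2* and *Zbtb20* encode zinc finger proteins that act as postnatal repressors, *Zhx2* of *Afp*, *H19* and *Gpc3* and *Zbtb20* of *Afp*. *Dlk1* encodes a transmembrane protein of hepatoblasts related to the Notch ligands, and it is imprinted like *H19* and *Peg3*, so that only 1 parental copy is normally read. *Dlk1* and *Peg3* are read from the paternal and *H19* from the maternal chromosome.

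By RefSeq on the GRCm38.p6 assembly, *Afp* lies on chromosome 5 (90490714 to 90508907) in the albumin gene cluster, 14111 bases after *Alb* and 10041 bases before *Afm*. The 250 bases upstream of the annotated starts of these 3 neighbours, all on the + strand, are shown because all 3 genes were lower in hSRY-ON livers and because the *Afp* and *Alb* windows hold binding motifs of liver factors whose transcripts are given further on. The windows are chr5:90490464-90490713 for *Afp*, chr5:90460620-90460869 for *Alb* and chr5:90518699-90518948 for *Afm*, written 5′ to 3′ up to the base before the start, with motif matches in capitals.
Afp: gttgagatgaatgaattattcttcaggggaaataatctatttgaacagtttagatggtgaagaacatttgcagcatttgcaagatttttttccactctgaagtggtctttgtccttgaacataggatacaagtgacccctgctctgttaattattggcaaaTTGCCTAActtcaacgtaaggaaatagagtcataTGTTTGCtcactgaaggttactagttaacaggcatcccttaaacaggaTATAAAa
Alb: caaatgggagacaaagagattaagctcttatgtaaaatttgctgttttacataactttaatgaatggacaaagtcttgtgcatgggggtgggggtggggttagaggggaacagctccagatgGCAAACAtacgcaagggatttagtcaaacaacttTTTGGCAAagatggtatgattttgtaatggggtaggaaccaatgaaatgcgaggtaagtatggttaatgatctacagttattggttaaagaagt
Afm: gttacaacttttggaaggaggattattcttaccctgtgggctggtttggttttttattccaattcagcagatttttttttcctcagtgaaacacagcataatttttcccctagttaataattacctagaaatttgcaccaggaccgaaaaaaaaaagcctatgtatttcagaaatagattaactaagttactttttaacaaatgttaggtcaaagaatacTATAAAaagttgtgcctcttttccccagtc
Searched on both strands were the TATA box TATAAA, 2 forms of the FOXA site (TGTTTAC and TGTTTGC), the C/EBP site TTGCNNAA, the NR5A2 site CAAGGTCA and the SRY and SOX core AACAAT, where N is any base. The *Afp* window held a C/EBP match 89 bases, TGTTTGC 55 bases and TATAAA 7 bases before the start. The *Alb* window held, on the reverse strand, TGTTTGC at 128 and a C/EBP match at 94 bases. *Afm* had TATAAA at 30 bases. Among windows of this length upstream of 32851 annotated starts, TGTTTGC was present in 4.30%, TTGCNNAA in 9.56%, TATAAA in 12.4% and AACAAT in 9.42%. AACAAT was in none of these 3 windows, which says only that these letters are not there. No match overlapped another.

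*H19* lies on chromosome 7 (142575530 to 142578146) and is also the host of a microRNA hairpin, *Mir675*, on the minus strand at chr7:142577064-142577147. Its mature products are shown as the known small RNAs of the transcript, with the seed, bases 2 to 8, in capitals. They were not measured by this array.
mmu-miR-675-5p: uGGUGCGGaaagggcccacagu
mmu-miR-675-3p: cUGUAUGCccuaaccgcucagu
The other genes lie on chromosome 12 (*Dlk1*, 109452485 to 109463336), chromosome 7 (*Peg3*, 6703892 to 6730462), chromosome 15 (*Zhx2*, 57694667 to 57839832), chromosome 16 (*Zbtb20*, 42875689 to 43634392) and the X chromosome (*Gpc3*, 52272426 to 52613974). Which exon each probe reads was not determined.

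On a bead array the brightness of a probe measures the amount of its transcript, and levels of different probes cannot be set against each other. Values are given as log2 intensity after background correction and quantile normalization, so that a difference of 1 is a doubling. A probe counts as detected where its detection p, its rank among the negative control beads of the array, is under 0.01, and probes detected on at least 3 of the 6 arrays were tested with limma. The adjusted p controls the false discovery rate over all 10734 tested probes, and a probe is called changed where it is under 0.05. The arrays detected 40.2% to 41.9% of all probes and correlated at 0.965 to 0.992 across probes within groups and at 0.912 to 0.939 between groups. The liver markers *Ttr*, *Apoa1*, *Apoa2*, *Trf* and *Ahsg* were detected on all arrays. Among bile duct markers *Krt7* was tested, *Spp1* was detected on 2 arrays and *Krt19*, *Sox9* and *Cftr* on 0.

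The difference between the groups was wide. Of the tested probes 33.1% were called, 15.8% higher and 17.3% lower in hSRY-ON livers, and all hSRY-ON values lay above all hSRY-OFF values at 25.4% and below them at 24.6%. Against this background, 3 of the 7 tested probes were called, those of *Afp*, *Dlk1* and *H19*, all lower, and 0 were called higher. These were also the 3 probes with all hSRY-ON values below the controls, and 2, those of *Peg3* and *Zhx2*, had all hSRY-ON values above them. The median difference of the 7 probes was 0.12 against 0.02 for all tested probes, since the 4 probes that were not called had fitted values above 0.

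**Figure D1:**
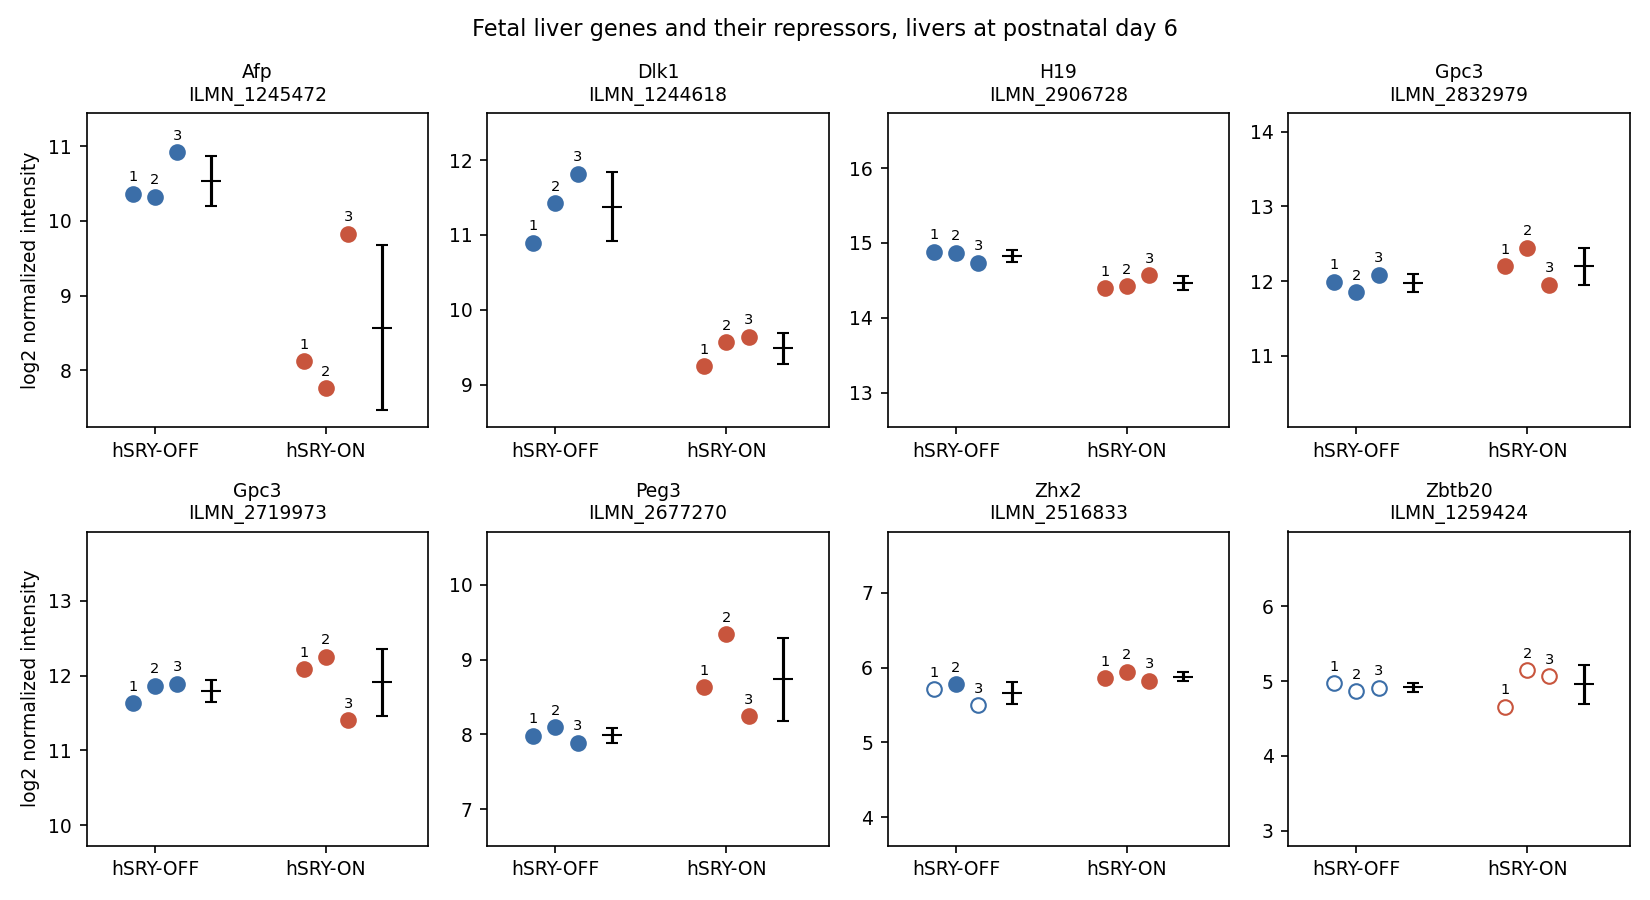
Log2 normalized intensity (vertical axis, drawn at the same scale in every panel) of the 8 probes on each array, with hSRY-OFF in blue and hSRY-ON in red, replicate numbers above the points and the mean ± SD in black. Open points are arrays on which the probe was not detected, and the *Afp* value of hSRY-ON replicate 3 stands between the other hSRY-ON values and the controls.

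*Afp* was at 10.36, 10.32 and 10.92 in the hSRY-OFF livers and at 8.12, 7.76 and 9.83 in the hSRY-ON livers. All hSRY-ON values lay below all controls, but replicate 3 lay much nearer to the controls than replicates 1 and 2. As deposited, before any correction, the same arrays read 1576, 1564 and 1807 against 444, 332 and 916 intensity units. The group means were 10.53 ± 0.33 and 8.57 ± 1.10 (SD, n = 3 each), a difference of -1.96 ± 0.50 (SE) with a 95% interval of -3.14 to -0.78, or 3.89-fold lower, and the call was made at an adjusted p of 0.0223 by limma. There were 151 tested probes that fell further.

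How firmly *Afp* was called depended on that array. Without hSRY-ON replicate 3 the difference was -2.59 (adjusted p 0.000501), and without any other single array it lay between -2.06 and -1.56 with adjusted p from 0.0511 to 0.0747, past the threshold in none of these 5 fits. Without the filter on dim probes the adjusted p was 0.0536. The direction was the same under every setting tried.

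Several marker lists also set hSRY-ON replicate 3 apart. The summed normalized intensity of the 9 tested neutrophil marker probes (*S100a8*, *S100a9*, *Mpo*, *Ngp*, *Camp*, *Ltf*) was 90820 in replicate 3 against 30150 and 34920 in the other hSRY-ON livers and 45470 to 52440 in the controls, and 0 of the 9 probes were called, against 33.1% of all tested probes. For 15 probes of cell cycle genes the sum was 17140 in replicate 3, 10640 and 11590 in the other hSRY-ON livers, and 14680 to 18560 in the controls. Of these 15 probes, 3 were called lower and 0 higher, 20% called. Replicate 3 was the hSRY-ON array nearest to the control mean at 7 of the 8 probes described here, the untested *Zbtb20* probe among them. It was nearest at 47.3% of all called and 39.4% of all tested probes. The part of these differences in the spread of *Afp* was not tested.

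*Dlk1* was at 10.89, 11.42 and 11.82 in hSRY-OFF and at 9.25, 9.57 and 9.64 in hSRY-ON livers. The groups were well apart, and hSRY-ON replicate 3 was close to its group. The means of 11.38 ± 0.46 and 9.48 ± 0.21 (SD, n = 3 each) differed by -1.89 ± 0.24 (SE, 95% interval -2.46 to -1.33), which is 3.72-fold lower, at an adjusted p of 0.00154. It was called under every setting tried, including without each array in turn, with differences from -2.13 to -1.66.

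*H19* was among the bright probes of every array. Its values were 14.88, 14.87 and 14.73 in hSRY-OFF and 14.39, 14.42 and 14.57 in hSRY-ON livers. The ranges did not overlap, although only 0.17 separated the lowest control from the highest hSRY-ON liver. The difference of -0.37 ± 0.12 (SE, 95% interval -0.65 to -0.10), or 1.29-fold lower, gave an adjusted p of 0.0465, and 2478 tested probes fell further. The deposited intensities of *H19* were 25304 to 31561 in hSRY-OFF and 22446 to 22931 in hSRY-ON livers, where the brightest probe of an array read 44365 to 47161, and how far the upper end of the scale compresses differences was not tested. This call was not kept with median scaling (adjusted p 0.0788), with a detection p of 0.05 (0.0562) or without any single array other than hSRY-ON replicate 3 (0.0753 to 0.145), while the direction was the same throughout.

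*Gpc3*, a cell surface proteoglycan of fetal liver that returns in liver cancer, did not follow *Afp* below the controls. Its probe ILMN_2832979 gave 11.99, 11.85 and 12.08 in hSRY-OFF and 12.20, 12.44 and 11.95 in hSRY-ON livers. The second probe, ILMN_2719973, gave 11.63, 11.87 and 11.89 against 12.08, 12.25 and 11.40. Values of the groups overlapped at both probes, with hSRY-ON replicate 3 the lowest of its group each time. The differences of 0.22 ± 0.16 and 0.12 ± 0.23 (SE) were not called (adjusted p 0.306 and 0.726), and their 95% intervals, -0.14 to 0.59 and -0.42 to 0.65, leave room for moderate changes either way. The sign of the second probe turned to -0.031 with median scaling and to -0.054 without hSRY-ON replicate 2.

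*Peg3*, a zinc finger protein gene, had values of 7.99, 8.09 and 7.89 in hSRY-OFF and 8.63, 9.34 and 8.25 in hSRY-ON livers. Every hSRY-ON liver was above every control, by very different amounts. The difference of 0.75 ± 0.26 (SE, 95% interval 0.14 to 1.36) was not called (adjusted p 0.0631). Without hSRY-ON replicate 3, the lowest of its group, it was 0.996 with an adjusted p of 0.0133, and with array weights 0.74 with an adjusted p of 0.0139. Without replicate 2, the highest, it was 0.45 (adjusted p 0.0836).

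The repressors of *Afp* were dim. *Zhx2* read 5.71, 5.78 and 5.50 in hSRY-OFF livers, of which 1 was detected, and 5.86, 5.94 and 5.83 in hSRY-ON livers, all detected. The probe thus entered the test mainly through the hSRY-ON arrays. Its difference of 0.21 ± 0.12 (SE, 95% interval -0.08 to 0.51) was not called (adjusted p 0.221), and it was 0.12 once undetected arrays were set to their detection floor. The *Zbtb20* probe was detected on 0 of the 6 arrays, with deposited intensities of 143 to 158, and was not tested, so nothing can be said here of its transcript. As a measure of what a silent probe means on this array, the probe of the abundant plasma protein gene *Gc* was also detected on 0 arrays.

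The ZHX relatives gave no common direction. *Zhx3* differed by 0.11 (adjusted p 0.864), with a sign that turned to -0.01 without hSRY-OFF replicate 3 and to -0.40 without hSRY-ON replicate 2. Of the 2 tested *Zhx1* probes, ILMN_2510714 fell by 0.93 (adjusted p 0.00621) and ILMN_2479530 was 0.37 higher without a call (adjusted p 0.128), so the probes of this gene disagreed. Other genes known to be regulated through *Zhx2* in mouse liver were mostly out of reach, with 2 of 4 probes tested and 0 called: *Lpl*, lipoprotein lipase, differed by -0.52 (adjusted p 0.0929) and *Cyp4a12a*, an androgen-dependent cytochrome P450, by 1.09 (adjusted p 0.202), while *Elovl3* was detected on 0 arrays. Of all tested probes 33.1% were called, so 0 of 2 says little.

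Since all values of 1 array share its RNA and scaling, *Afp* was also taken relative to each other gene on the same array. *Afp* minus *Dlk1* was -0.53, -1.10 and -0.90 in hSRY-OFF and -1.12, -1.80 and 0.19 in hSRY-ON livers. These ranges overlapped, with a mean change of -0.07 (exact permutation test over arrays, two-sided, p = 0.9, adjusted over 6 pairs 0.9), and the sign of the change turned without background correction (0.108). *Afp* minus *H19* was -4.52, -4.55 and -3.82 in hSRY-OFF and -6.27, -6.65 and -4.74 in hSRY-ON livers, without overlap. It changed by -1.59, and *Afp* changed by -2.18 and -2.08 relative to the 2 *Gpc3* probes, by -2.71 relative to *Peg3* and by -2.18 relative to *Zhx2*. In each of these 5 pairs the groups did not overlap, with p = 0.1 in the exact permutation test, the smallest that 3 against 3 arrays allow, and 0.12 after adjustment.

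The genes next to *Afp* were both lower. *Afm*, which encodes the vitamin E binding protein afamin, was at 7.74, 7.54 and 7.69 in hSRY-OFF and at 5.68, 5.78 and 5.69 in hSRY-ON livers, where 2 of 3 arrays detected it. It fell by 1.94 ± 0.12 (SE, adjusted p 0.000122), or by 1.91 with the undetected array at its floor. The only *Alb* probe, for serum albumin, read 8.16, 8.15 and 7.49 against 6.95, 6.97 and 6.55, a fall of 1.11 ± 0.22 (adjusted p 0.00852), and its values were low for a transcript known to be among the most abundant of the liver. Neither call was lost under any setting, but without background correction the differences were smaller, -0.88 for *Afm* and -0.64 for *Alb*. Unlike *Afp*, these genes were as low in hSRY-ON replicate 3 as in the other hSRY-ON livers. In these bulk samples fewer cells of a type and less RNA per cell cannot be told apart. Of 9 tested hepatocyte marker probes, *Alb* among them, 4 were called lower and 0 higher (44.4% called against 33.1% of all probes), and their summed intensity was 193500 to 197500 in hSRY-OFF and 175100 to 182900 in hSRY-ON livers. For 8 erythroid marker probes, of which 4 were called higher against 15.8% of all probes, it was 54300 to 61940 against 64110 to 70870. Of 9 tested macrophage marker probes 4 were called lower and 1 higher, 55.6% in all (6331 to 8560 against 4308 to 5586). Of 9 stellate cell marker probes 2 were called lower and 1 higher (11860 to 13840 against 9424 to 11140). For the stellate list that is 33.3% called, close to the share over all probes. Among the probes called lower, *Lrat* (stellate) and *Clec4f* at ILMN_2876653 (macrophage) were silent in every hSRY-ON liver. They passed the filter through the controls alone, so their direction went with the filter. As bounds they were at least 2.23-fold and 1.14-fold lower. Of 7 endothelial marker probes 3 were called higher, 0 lower and 4 neither, 42.9% called against 33.1% of all probes. Their differences ran from -0.40 to 1.94. Those called were *Lyve1* (1.94, adjusted p 0.000742, detected on 1 of 3 hSRY-OFF arrays) and both *Pecam1* probes (0.64 each). The summed intensities were 3000 to 3614 in hSRY-OFF and 3527 to 4357 in hSRY-ON livers, where replicate 3, at 3527, lay within the control range. The part of cell composition in the falls of *Afp*, *Dlk1*, *Afm* and *Alb* was not tested.

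Transcripts of the factors known to act on the *Afp* promoter and enhancers were lower more often than higher. Of 23 tested probes, 11 were called lower, 1 higher and 11 were not called, 52.2% against 33.1% of all probes, with a median of -0.63 (-0.57 with 2 undetected probes at their bound) against 0.02. Those 2, for *Gata4* and *Tbx3*, are among the probes called lower. They entered the test through the hSRY-OFF arrays alone, with no hSRY-ON array detecting them, so their direction went with the filter. *Cebpa*, a driver of hepatocyte maturation, fell by 1.66 ± 0.27 (SE, adjusted p 0.00392), from a mean of 9.70 ± 0.06 to 8.04 ± 0.57 (SD, n = 3 each). Its relative *Cebpb*, a factor of the acute phase response, rose by 1.39 ± 0.20 (adjusted p 0.00266). *Prox1*, a homeobox gene of hepatoblasts, fell at both of its probes (-0.79 and -1.17, the second -0.45 without background correction). The second was detected on 1 of 3 hSRY-ON arrays, and its difference was -0.95 with undetected arrays at their floor. The forkhead factors *Foxa2*, at -0.83 (adjusted p 0.0304), and *Foxa3*, at -0.92 (adjusted p 0.00449), were lower, and *Foxa1* differed by 0.34 without a call. The *Foxa2* call was lost under 7 of 16 alternatives, among them each single array left out except hSRY-ON replicate 3 (adjusted p up to 0.109), and its difference was -0.37 without background correction. *Hnf4a*, a master regulator of hepatocytes, differed by -0.09 (adjusted p 0.768), and *Nr5a2*, which binds the *Afp* promoter, by -0.48 (adjusted p 0.400). With median scaling 7 rather than 11 of these probes were called lower.

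Other oncofetal and hepatoblast genes went both ways. Of 13 tested probes, 4 were called higher and 2 lower, 46.2% against 33.1% of all probes, with a median of 0.30 against 0.02. *Mdk*, the growth factor midkine, fell by 2.19 ± 0.37 (adjusted p 0.00484) at ILMN_3158499 and was at least 1.82-fold lower at ILMN_1254450, which no hSRY-ON array detected. *Pkm2* (now *Pkm*), the pyruvate kinase of fetal liver and tumours, rose by 1.35 ± 0.20 (adjusted p 0.00296), and the RNA binding protein gene *Igf2bp2* rose by 0.98 ± 0.14 (adjusted p 0.00211). *Sall4*, a stem cell factor of fetal liver, and 1 of 2 *Hmga1* probes were also called higher (0.90 and 0.70), the *Sall4* probe with 1 of 3 hSRY-OFF arrays detecting it. *Igf2bp3* differed by 0.14 and 0.37 at its 2 probes and *Spink3* (now *Spink1*), a trypsin inhibitor, by 0.51 (adjusted p 0.0612), without a call. *Igf2bp1* and *Hmga2* were detected on 0 arrays, and no probe was matched to *Lin28b* or *Epcam*.

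**Figure D2:**
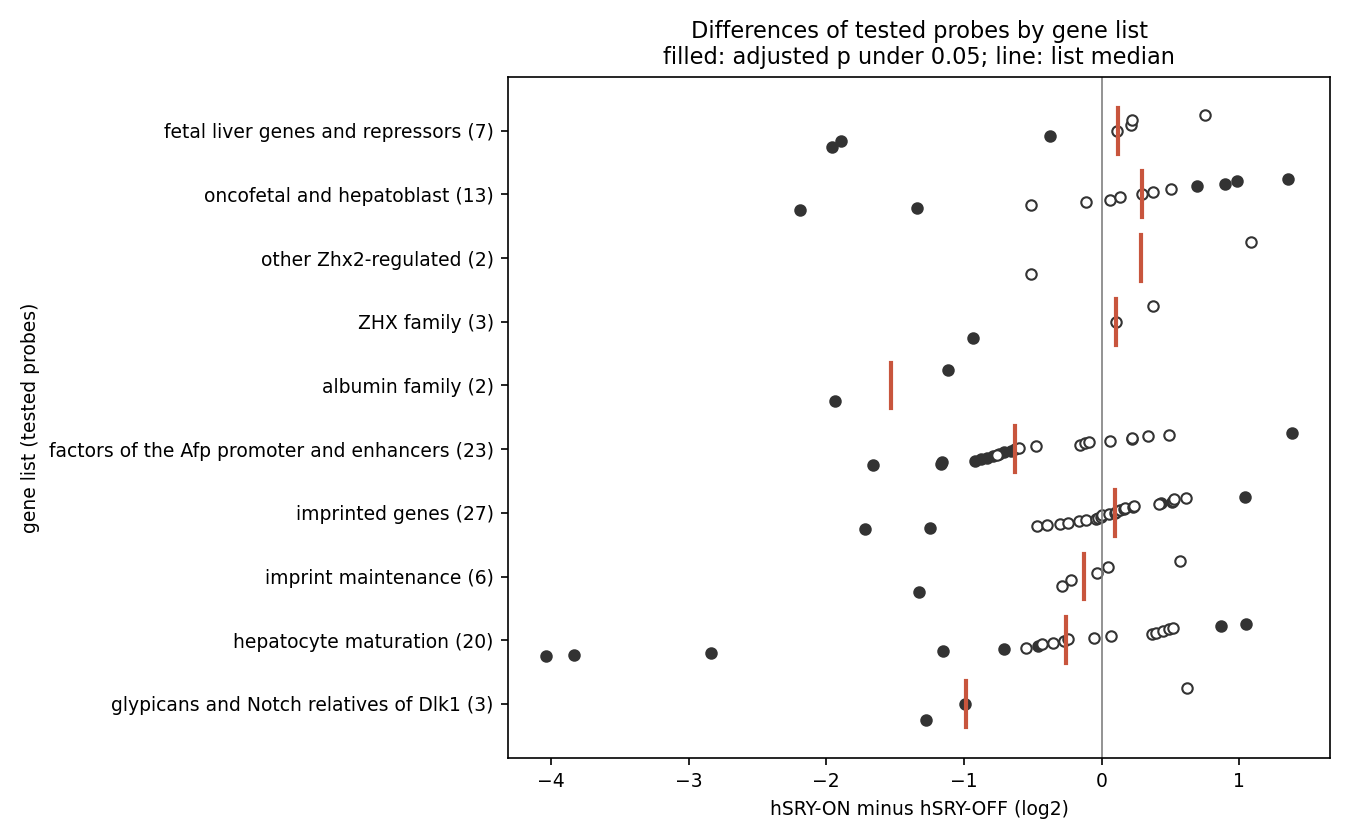
Difference between group means, hSRY-ON minus hSRY-OFF in log2 units (horizontal axis), for each tested probe of 10 gene lists (vertical axis, with the number of tested probes); filled points have an adjusted p under 0.05 and the red line is the list median. *Afp* and *Dlk1* are the 2 leftmost points of the first row, and 11 of the 23 probes for factors of the *Afp* promoter are filled on the left side.

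Imprinted genes other than *Dlk1*, *H19* and *Peg3*, listed from many chromosomes and not only from their neighbourhoods, were mostly not called. Of 27 other tested imprinted probes, 3 were called higher, 2 lower and 22 neither, 18.5% against 33.1% of all probes. On distal chromosome 7, *Igf2*, the fetal growth factor gene reciprocal to *H19*, lay at 15.23, 15.15 and 15.29 in hSRY-OFF and at 15.03, 15.18 and 15.13 in hSRY-ON livers. These ranges overlapped, and the difference of -0.11 ± 0.11 (SE) was not called (adjusted p 0.487). *Cdkn1c*, the cell cycle inhibitor p57, fell by 1.72 (adjusted p 0.000438), with hSRY-ON arrays at -1.67, -1.68 and -1.81 relative to the control mean. Its neighbour *Slc22a18*, a membrane transporter gene that is imprinted with it, fell by 1.25 (adjusted p 0.000492), and *Nap1l4*, also close by, rose by 0.43 (adjusted p 0.0300). *Cd81* (-0.04) and *Phlda2* (0.52), which also lie there, were not called.

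Away from that cluster, *Mest*, a paternally read gene of growing mesoderm, rose by 1.04 at ILMN_2846904 (adjusted p 0.0346), while its 2 other tested probes, at 0.61 and 0.52, were not called. *Gnas*, encoding a G protein subunit, rose by 0.51 at 1 of 2 tested probes (adjusted p 0.0233). The *Mest* call was lost under 6 of 16 alternatives (adjusted p up to 0.115) and its difference was 0.48 without background correction, and the *Gnas* call was lost under 7 (adjusted p up to 0.0953). The receptor gene *Igf2r* differed by -0.39 and -0.47 without a call. In the *Dlk1* region of chromosome 12, *Dio3*, a deiodinase gene, differed by -0.25 without a call, *Rtl1* was detected on 0 arrays and no probe was matched to *Meg3*. Beside *Peg3* on chromosome 7, *Zim1* and *Usp29* were detected on 0 arrays. *Plagl1*, which encodes a regulator of imprinted genes, was detected on 0 arrays with 3 probes. Among 6 probes of genes that maintain imprints, the DNA methyltransferase gene *Dnmt3b* fell by 1.33 (adjusted p 0.00394), and *Trim28*, *Uhrf1*, *Dnmt1*, *Ctcf* and *Arid4b* were not called (-0.29 to 0.57). That is 16.7% called against 33.1% of all probes.

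**Figure D3:**
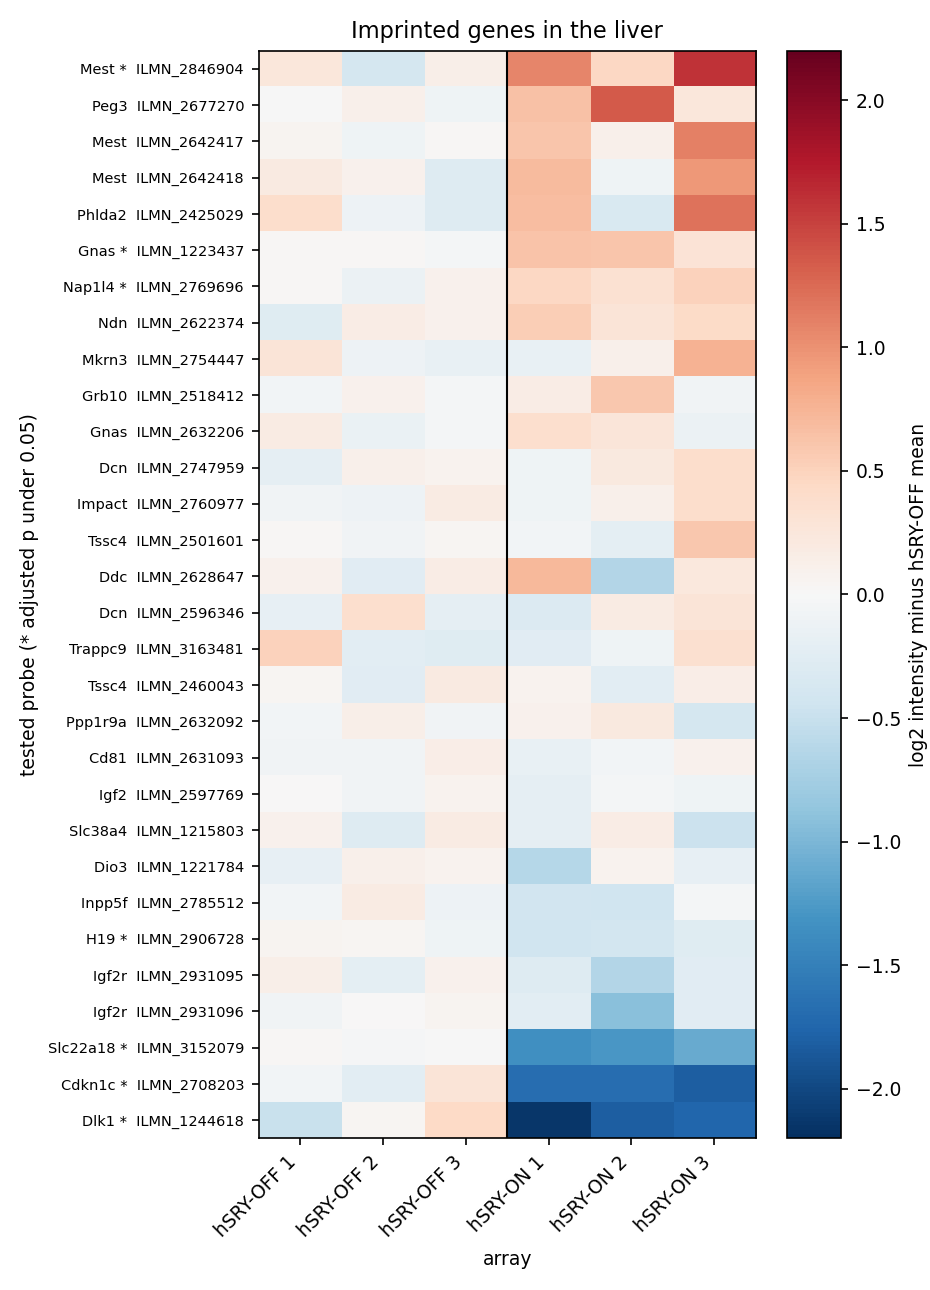
Log2 intensity minus the mean of the hSRY-OFF arrays (colour, lower in blue and higher in red) for each tested probe of imprinted genes (rows, ordered by the difference between groups; an asterisk marks an adjusted p under 0.05) on each array (columns, hSRY-OFF left of the line). *Dlk1*, *Cdkn1c* and *Slc22a18* are lower on all 3 hSRY-ON arrays, with values of -2.13 to -1.11, while most other rows are pale.

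A list of glypicans and of genes of Notch and hedgehog signalling was looked at next. Of its 3 tested probes 2 were called lower and 0 higher, where 17.3% of all tested probes were called lower. *Hes1*, a target of Notch signalling, fell by 0.99 (adjusted p 0.0102). *Ihh*, a hedgehog ligand, was at least 1.41-fold lower. It entered the test through the hSRY-OFF arrays alone, with no hSRY-ON array detecting it. *Gpc1*, a glypican like *Gpc3*, differed by 0.62 without a call. *Jag1*, *Notch2*, *Dlk2*, *Gpc2*, *Gpc4* and *Gpc5* were detected on 0 arrays.

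Genes that normally come on as hepatocytes mature were looked at as the counterpart of *Afp* and *Dlk1*. Of 20 tested probes, 6 were called lower, 2 higher and 12 neither, 40.0% against 33.1% of all probes, with a median of -0.26 against 0.02. *Cyp2e1*, the ethanol-metabolising cytochrome P450 that comes on at birth, fell by 2.84. *Arg1*, an enzyme of the urea cycle, rose by 1.05 and *Uox*, urate oxidase, by 0.87.

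Over the 6 arrays, the probes most like each gene were sought by Pearson's r, which with groups this far apart is high for many probes and is given only as a description. Nearest to *Afp* were *Fcrla* (r = 0.9985) and *Vpreb3* (r = 0.9973), both known from B lymphocytes and their precursors, followed by *Pmf1* (r = 0.9937). *Fcrla* differed by -1.81 and *Vpreb3* by -2.28 between the groups. Nearest to *Dlk1* were *Surf4* (r = 0.9957) and *Col14a1* (r = 0.9938). *H2-T10* (r = 0.9973), 2810432D09Rik (now *Rpp25l*, r = 0.9971) and *Mid1ip1* (r = 0.9966) were nearest to *H19*. *Peg3* was nearest to LOC100046035 (r = 0.9969), *Unc84b* (now *Sun2*, r = 0.9952) and E130203B14Rik (now *Vstm4*, r = 0.9946). The *Gpc3* probe ILMN_2719973 was nearest to *Pdgfrb* (r = 0.9943), *Dnase2b* and *Med25*, and ILMN_2832979 to *Rab3gap1* (r = 0.9935), *Scarf1* and *Lysmd1*. None of these probes was shared between these genes.

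**Figure D4:**
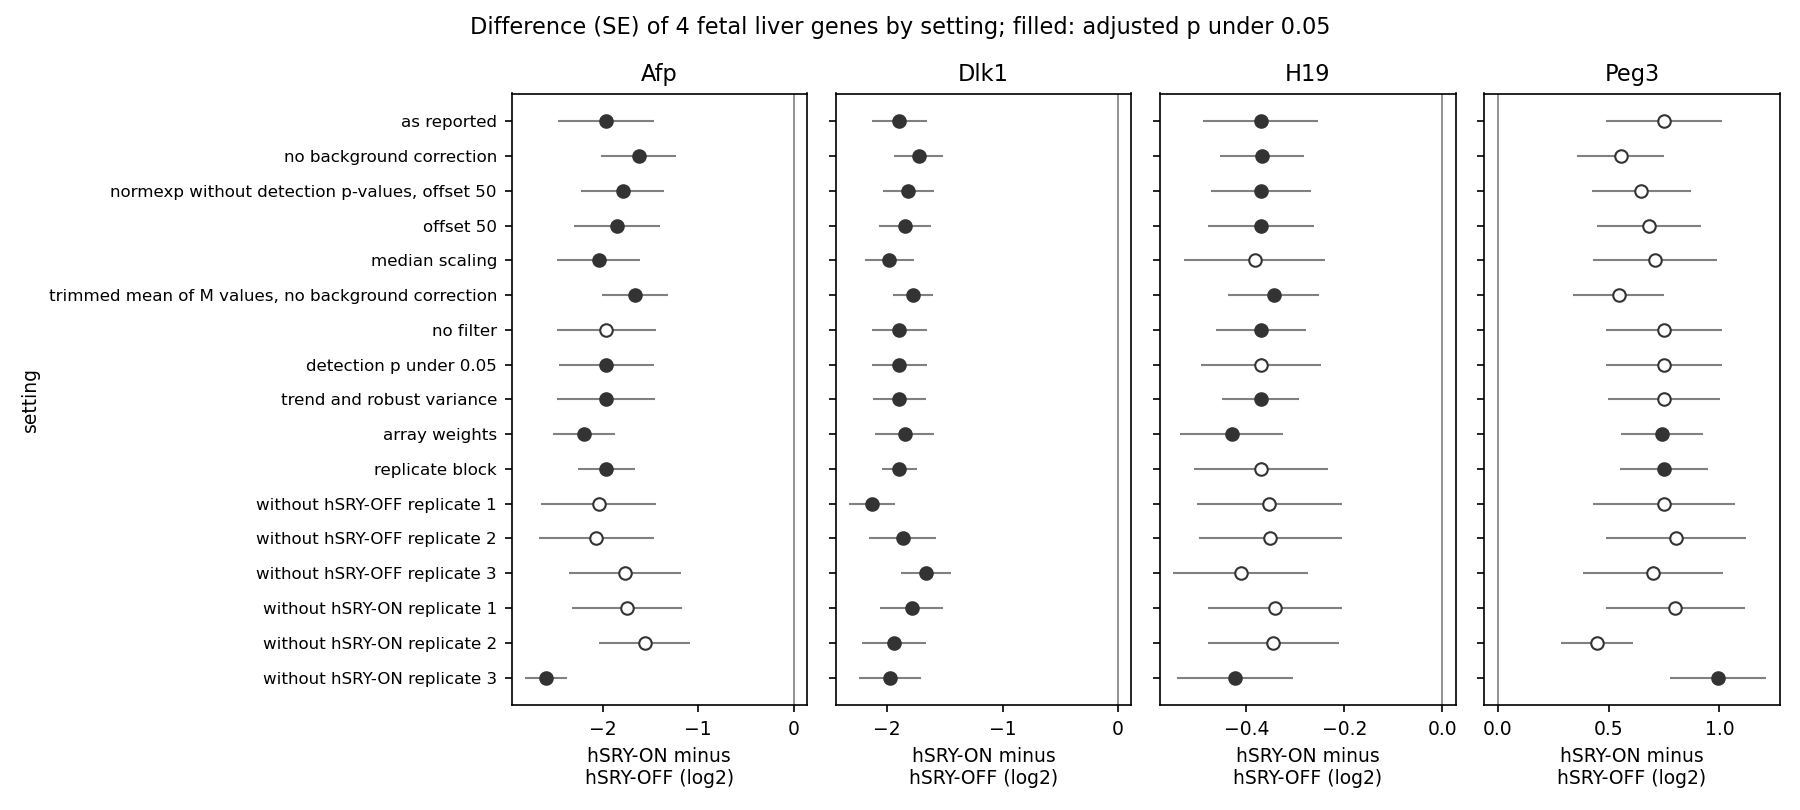
Difference between group means, hSRY-ON minus hSRY-OFF in log2 units with its SE (horizontal axis, own scale in each panel), for *Afp*, *Dlk1*, *H19* and *Peg3* under the reported setting and 16 alternatives (vertical axis). Filled points have an adjusted p under 0.05: all 17 for *Dlk1*, and only some for the other 3 genes, whose points nevertheless stay on one side of 0.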

How the data were processed

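Total RNA of 6 livers, extracted with a Trizol kit, was labelled by the authors as biotinylated cRNA and hybridised to Illumina MouseRef-8 v2.0 BeadChips. The deposited table gives, per probe and array, a bead intensity on a linear scale, neither background-subtracted nor normalized by the authors, and a detection p-value, also as deposited. Scanner software and genome build were not given in the sources used here. The study names TCC, a package for count data, without a model, so limma 3.58.1 in R 4.3.3 was used instead: normexp correction from the detection p-values (nec, offset 16, which shrinks differences of dim probes), quantile normalization, log2, a filter of detection p under 0.01 on at least 3 of 6 arrays, then lmFit and eBayes without covariates on all 10734 tested probes, two-sided, with Benjamini-Hochberg adjustment. The procedure was also run on simulated data, with far fewer changed probes than were called here and spreads taken from the hSRY-OFF arrays alone. That run therefore says nothing of changes this wide or of the larger spread among hSRY-ON arrays. Precision is limited by the small number of arrays, 3 a group. The limma p-values set each difference against the spread between these livers. In them the variance of each probe is drawn toward a value estimated over all tested probes.

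Where no array of the dimmer group detected a probe, the fold is a bound: the brighter mean over the mean of the detection floors of the other group, or of the probe's own signal where that was higher. Different probes of a gene were kept apart. Gene symbols were brought up to date through RefSeq (GRCm38.p6): of 18138 symbols, 14307 were current, 2927 were older names of 1 gene and 904 were not matched. Promoter and microRNA sequences are RefSeq's, for GRCm38.p6. Sequences upstream of *H19* and *Zhx2* were not used here. All 5 other genes had an entry.

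The genes followed and the gene lists were chosen with earlier results of these data known. Named were all probes of the 7 genes, a fixed set of relatives whatever their values (*Igf2*, *Igf2r*, *Igf2bp3*, *Lin28b*, *Spink3*, *Epcam*, *Lpl*, *Elovl3*, *Meg3*, *Plagl1*, *Cdkn1c*, *Zhx1*, *Zhx3*, *Alb*, *Afm*, *Gc*, *Hnf4a*, *Foxa2*, *Cebpa*, *Nr5a2*), in each list up to 2 called probes of largest rise and 2 of largest fall whose groups did not overlap, and the 3 most alike probes. A few items the rule would name are not reported here. Further list members were named after their values were seen. Alternatives covered background correction, offset, normalization, filter, variance model, threshold, a replicate block and leaving out each array.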

Additional observations from a re-analysis of the deposited data

How the results depend on the processing

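*Dlk1* kept its call and direction under all 16 alternatives, and *Zhx2* and the first *Gpc3* probe (ILMN_2832979) stayed without a call. *Afp* was not called without the filter on dim probes (-1.96, adjusted p 0.0536), and leaving out single arrays moved its difference from -2.59 to -1.56, with the call kept only without hSRY-ON replicate 3. *H19* was not called with median scaling (-0.38) or a detection p under 0.05 (-0.37), nor without any array but hSRY-ON replicate 3, with differences from -0.42 to -0.34 over single arrays left out. *Peg3* was called with array weights (0.74), and its difference ran from 0.45 to 0.996 over single arrays left out. The second *Gpc3* probe turned to -0.031 with median scaling and ran from -0.054 to 0.38 over single arrays left out. Among the other genes named, the sign turned for *Zhx3* (-0.40 to 0.50) and *Hnf4a* (-0.28 to 0.13) when single arrays were left out. *Afp* relative to *Dlk1* changed by 0.108 without background correction, by 0.118 with trimmed mean of M values scaling, and by -0.616 to 0.382 without single arrays.

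Of the probes of the 7 genes, 1 was called lower at an adjusted p under 0.01, and 1 to 3 without single arrays, while 1 was called higher with array weights and 0 to 1 without single arrays. Over all probes, 693 higher and 972 lower were called at an adjusted p under 0.01, and 893 to 1944 higher and 1141 to 2116 lower without single arrays. With median scaling 1 imprinted probe was called higher and 7 probes for factors of *Afp* were called lower. The cause of these changes was not tested.

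Replicate numbers were not taken as pairs. Same-numbered arrays had residual correlations of 0.025, 0.095 and 0.052, and arrays of different number -0.17 to 0.133. With so few arrays these values cannot show whether the samples were paired. With the replicate block, *Afp* was at -1.96 (SE 0.30, adjusted p 0.00927) and *Dlk1* at -1.89 (SE 0.15, adjusted p 0.00226). *H19* was at -0.37 (adjusted p 0.0949) and *Peg3* at 0.75 (adjusted p 0.0417), so 1 probe of the 7 genes was called higher, and of all probes 1565 higher and 1645 lower.

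The 46 other named probes gave 736 values under these alternatives, of which 666 kept direction and side of the threshold, 56 lost and 11 gained a call, and 3 turned sign. Dim probes such as those of *Zhx2* and *Zbtb20* lie near the detection floor, where the signal over background limits what can be seen.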
